A study of Mus musculus with 38 samples.

Results

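The RNA of 33 genes that copy DNA or carry a cell from G1 into S phase was followed in oligodendrocyte precursor cells (OPCs), the dividing glial cells that later form myelin. The 33 genes are named replication licensing, replication fork, nucleotide synthesis and G1/S genes, found by symbol among the 54532 genes of the count table, and all 33 passed the filter on low counts that kept 22798 genes. The rule names symbols and uses no measured value, though the members were chosen with earlier results of these data known. In KO mice Cre removes part of the gene of BMAL1, a transcription factor at the core of the circadian clock, and the comparison asks whether the level or the daily course of these genes differs between KO and WT.

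All mice were Bmal1 fl/fl. KO mice also carried NG2:Cre, a Cre transgene driven by the promoter of Cspg4 (NG2), a gene of OPCs and pericytes, and WT mice were Cre-negative, so no group carried Cre with intact Bmal1. Cells came from forebrains at postnatal days 6 to 7, with 2 mice pooled per library. They were passed over plates coated with a lectin, to hold back other cells, and then captured with an antibody to PDGFRA. Under 12 h of light and 12 h of dark, tissue was taken at zeitgeber times (ZT) 0, 6, 12 and 18 h, with lights on at ZT0 and off at ZT12. KO had 4, 7, 4 and 4 libraries at these times, and WT had 4, 5, 6 and 4.

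Before a cell copies its DNA, the origin recognition complex, Cdc6 and Cdt1 load rings of the MCM proteins onto chromatin, a step called licensing. At the start of S phase, cyclin E with its kinase releases E2F transcription factors from the retinoblastoma protein, and E2F raises transcription of most of the genes described here. Cdc45 and the GINS complex then turn the MCM ring into the active helicase, polymerase alpha with primase starts each strand, and the sliding clamp PCNA holds the later polymerases to DNA. In young forebrain these genes mark OPCs that still divide, and they are active in any other dividing cell.

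Total counts per library ranged between 19.4 and 39 M (M for mega, as in counts per M), and the median library had 25.9 M. OPC and microglia markers were high in all groups: the 20 OPC markers summed to 16000 to 24600 counts per M (CPM) in single libraries, and the 20 microglia markers, all detected, to 5100 to 22800 CPM. A change therefore cannot be assigned to OPCs alone, and fewer dividing cells cannot be told apart from less RNA per cell. A set of 8 libraries stood apart by a low share of ribosomal RNA, at 0.0848% to 0.263% of counts against 0.409% to 1.34% in the other 30. These low-rRNA libraries were all 4 KO libraries of ZT18, KO ZT6 replicate 7 and WT ZT12 replicates 4, 5 and 6, so that at ZT18 the split coincides with genotype. The labels state mixed sexes, yet 7 libraries held no Y-linked counts and 6 had Xist at or below 12.4 CPM. These 13 single-sex libraries were KO ZT0 replicate 1, KO ZT6 replicates 1, 5 and 6, KO ZT18 replicate 1, WT ZT12 replicates 1 to 4, WT ZT18 replicates 2 and 4, replicate 1 of WT ZT0 and replicate 2 of WT ZT6. Cre removes only part of Arntl, the mouse symbol of Bmal1, so a count of that gene does not check the KO label.

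Per gene length, the clamp gene Pcna was the highest of the 33, with a mean of 91.1 reads per kilobase and M counts (RPKM) over the 38 libraries. The MCM ring genes lay well below it: Mcm6 averaged 29.8 RPKM, Mcm3 and Mcm5 25.2 RPKM each, Mcm4 23.5 RPKM, Mcm7 22.3 RPKM and Mcm2 14.7 RPKM. The partners that activate the ring were lower, with Gins4 at 14.5, Gins1 at 8.94, Cdc45 at 4.72, Gins2 at 2.76 and Gins3 at 2.17 RPKM. Of the loading factors, Cdt1 averaged 12.7 RPKM, whereas Cdc6 had 2.55 RPKM and Orc1, the largest subunit of the origin recognition complex, 1.67 RPKM. Mcm10 had 2.72 RPKM. Among genes that supply nucleotides, Rrm2 and Rrm1, the subunits of ribonucleotide reductase, had 27.1 and 14.6 RPKM, and Tyms, which makes thymidylate, 4.15 RPKM. The lowest was Fen1, the nuclease that trims flaps between Okazaki fragments, at 0.96 RPKM, with as few as 22 counts in a library. Fen1 overlaps Tmem258 on the opposite strand, and Mcm7, Cdc45, Gins2, Rfc4, Lig1, Chaf1a and Ccne2 also overlap a coding gene on the other strand. Since the strand setting of the counting is not given in the sources used here, reads of such pairs cannot be told apart.

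**Figure D1:**
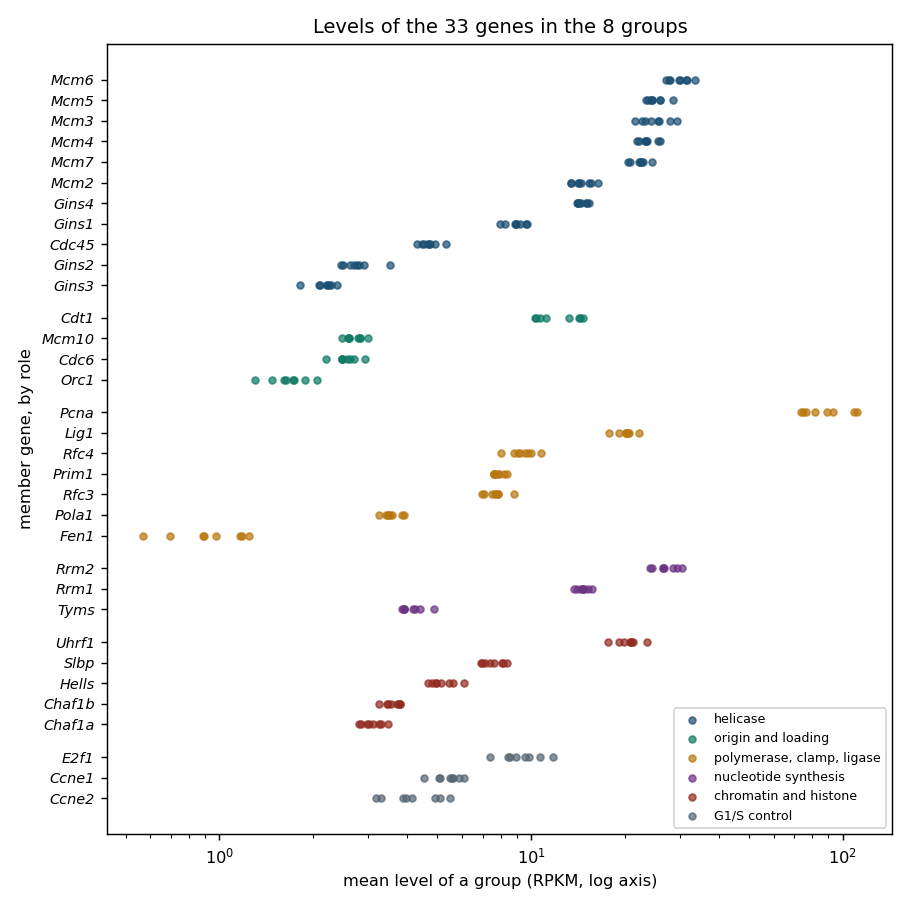
Mean level of each of the 33 genes in each of the 8 genotype-by-time groups (RPKM, log axis, 1 point per group), with genes grouped by role. The 8 points of a gene lie close together beside the range between genes, from Fen1 at a mean of 0.96 to Pcna at 91.1 RPKM.

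RefSeq promoter windows of GRCm38.p6, covering 250 bases before to 50 bases after a gene's start, were found for 28 of the 33 genes, as 33 windows. They were searched on both strands for 4 forms of the E2F site, TTTCCCGC, TTTCGCGC, TTTGCCGC and TTTGGCGC, which can overlap each other on opposite strands. At least 1 form lay in the windows of 13 of the 28 genes (Cdc6, Cdt1, Gins3, Hells, Lig1, Mcm3, Mcm5, Mcm6, Mcm7, Orc1, Pola1, Rfc3 and Uhrf1) and in 2.26% of all 32851 windows. CACGTG, the E-box that BMAL1 with CLOCK binds, lay in the windows of Chaf1a, Fen1, Lig1 and Tyms, and in 7.15% of all windows. CCAAT or its complement lay in windows of 18 of the 28 genes, and in 37.4% of all windows. No more than the presence of these letters is meant.

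In the tests that follow, 7 genes passed over time of day in KO, and of these Pcna and Cdt1 also passed in WT. Of the 7, Ccne2 had no window, and Uhrf1, listed above with a match, is not printed. The windows of the other 5 are given 5′ to 3′ on the gene's strand, with E2F matches in capitals. They are Pcna at chr2:132253131-132253430 (minus strand), Cdt1 at chr8:122567765-122568064 (plus strand), Mcm3 at chr1:20820263-20820562 (minus strand), Hells at chr19:38930740-38931039 (plus strand) and E2f1 at chr2:154569377-154569676 (minus strand).
Pcna: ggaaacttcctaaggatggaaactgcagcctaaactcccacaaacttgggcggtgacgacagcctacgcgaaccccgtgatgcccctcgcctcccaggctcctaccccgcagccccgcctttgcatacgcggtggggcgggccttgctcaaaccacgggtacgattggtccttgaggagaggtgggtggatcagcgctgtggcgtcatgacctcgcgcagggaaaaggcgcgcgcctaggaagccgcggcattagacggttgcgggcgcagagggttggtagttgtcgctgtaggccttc
Cdt1: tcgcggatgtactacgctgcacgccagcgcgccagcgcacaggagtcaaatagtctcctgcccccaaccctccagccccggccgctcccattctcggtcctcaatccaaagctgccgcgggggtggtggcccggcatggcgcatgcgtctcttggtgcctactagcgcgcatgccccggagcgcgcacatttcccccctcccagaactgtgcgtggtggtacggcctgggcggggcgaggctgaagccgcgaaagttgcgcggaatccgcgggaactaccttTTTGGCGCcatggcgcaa
Mcm3: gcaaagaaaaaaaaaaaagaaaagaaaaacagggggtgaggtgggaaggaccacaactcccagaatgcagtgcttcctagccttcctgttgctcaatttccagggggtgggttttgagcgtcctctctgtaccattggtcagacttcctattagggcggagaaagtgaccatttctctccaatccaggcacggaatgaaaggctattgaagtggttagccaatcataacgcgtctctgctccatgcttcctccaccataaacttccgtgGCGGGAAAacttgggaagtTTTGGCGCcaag
Hells: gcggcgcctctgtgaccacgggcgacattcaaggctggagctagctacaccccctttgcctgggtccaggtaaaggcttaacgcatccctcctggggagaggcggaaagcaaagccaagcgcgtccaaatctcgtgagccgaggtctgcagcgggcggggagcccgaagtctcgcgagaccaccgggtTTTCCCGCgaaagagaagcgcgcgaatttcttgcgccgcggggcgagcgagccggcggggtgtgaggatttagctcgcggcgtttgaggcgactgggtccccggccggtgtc
E2f1: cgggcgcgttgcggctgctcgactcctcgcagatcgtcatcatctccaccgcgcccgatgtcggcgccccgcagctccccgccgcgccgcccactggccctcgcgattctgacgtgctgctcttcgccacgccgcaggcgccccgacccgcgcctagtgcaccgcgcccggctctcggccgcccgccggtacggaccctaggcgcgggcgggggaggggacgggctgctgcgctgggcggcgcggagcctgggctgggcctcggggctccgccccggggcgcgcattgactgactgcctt
Cdt1 and Mcm3 carried matches just after the start and Hells carried its match 62 bases before it. The windows of Pcna and E2f1 held none of the 4 forms. The E2f1 window lies inside the gene as counted, which spans 154559407 to 154569892 on the minus strand. Bases before the start of E2f1 at 154569892 were therefore not searched.

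None of the 33 genes differed past the threshold between KO and WT when averaged over the 4 times. In this comparison of KO over WT, 28 of the 33 log2 fold changes were above 0 and 5 at or below it, with a median of 0.05 and none past an adjusted p of 0.05 in the edgeR quasi-likelihood test (adjusted by Benjamini-Hochberg over all genes tested). An unadjusted p below 0.05 was found for 4 members (12.1%), against 15.1% of all genes. DESeq2 and limma-voom called no member either. Of all 22798 genes tested, 0.0921% passed, 10398 were above 0, and the median was -0.02. With the low-rRNA set as a term in the model, 21 of the 33 were above 0 and their median was 0.01, against -0.01 over all genes. Without the low-rRNA libraries, and so without ZT18, 28 were above 0 and their median was 0.07, against -0.02 over all genes. Every 95% interval of the 33 lay within 0.5 of 0 on the log2 scale, from a lower bound of -0.31 for Cdc6 to an upper bound of 0.44 for Fen1.

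The helicase genes all had values above 0 in this comparison, 11 of 11, with a median of 0.08 and a range of 0.02 to 0.19. They were not summarised apart from the other members in the low-rRNA fits. Mcm6, a subunit of the ring, had the smallest adjusted p of the 33. It lay at 128, 161, 160 and 141 CPM at ZT0, 110 to 169 CPM with a median of 142 at ZT6, 161, 145, 176 and 144 CPM at ZT12 and 144, 157, 131 and 154 CPM at ZT18 in KO libraries. In WT libraries it lay at 115, 123, 150 and 120 CPM, then 122, 129, 121, 134 and 141 CPM, then 116 to 161 CPM with a median of 123, and then 142, 168, 126 and 121 CPM. The genotypes overlapped at every time, and KO over WT, at 0.16 on the log2 scale (SE 0.057), did not pass (adjusted p = 0.159). For Gins2, a GINS subunit, it was 0.19 (SE 0.0895, adjusted p = 0.298), and for Mcm4 0.12 (SE 0.0543, adjusted p = 0.296). Cdc6, which loads the ring, lay on the other side with -0.15 (SE 0.0784, adjusted p = 0.37).

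At single times the genotypes differed in 1 gene. At ZT0 and ZT6 no member passed, while 0.285% and 0.0132% of all genes did. Unadjusted p-values below 0.05 were found for 3 and 1 members (9.09% and 3.03%), against 18.4% and 4.39% of all genes. The shares of all genes that passed depend on single libraries: leaving out 1 library moved them between 0.00424% and 9.37% at ZT0, 1.1% and 5.89% at ZT12 and 0.187% and 3.36% at ZT18. At ZT12, Hells, a chromatin remodeller needed for DNA methylation, was the only 1 of the 33 to pass, where 5% of all genes passed (1.31% upward). Hells lay at 47, 42.6, 43.2 and 42.9 CPM in KO libraries of ZT12, against 34.3, 31.3, 28.2, 34.2, 34.9 and 39.5 CPM in WT libraries of ZT12. All KO values were above all WT values, and the log2 fold change was 0.38 (SE 0.0976, adjusted p = 0.0185). The call was lost without KO ZT12 replicate 1 (0.35, adjusted p = 0.092) or replicate 3 (0.39, adjusted p = 0.0631). It was also lost without the low-rRNA libraries, at 0.49 (SE 0.122, adjusted p = 0.141), a fit in which 1 gene of all tested passed, and without the 13 single-sex libraries, at 0.24 (adjusted p = 0.297). In that last fit, whose WT ZT12 group is 2 low-rRNA libraries, Pcna (-0.48, adjusted p = 0.0198), Cdt1 (-0.5, adjusted p = 0.0314) and E2f1 (-0.65, adjusted p = 0.0193) were lower in KO. With all libraries these 3 genes had -0.28, -0.3 and -0.41 and did not pass.

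At ZT18 no member passed, where 2.14% of all genes did. An unadjusted p below 0.05 was found for 7 members (21.2%), against 18.2% of all genes. Ccne2, a cyclin E that drives entry into S phase, came closest to passing. It lay at 12.3, 11.4, 9.52 and 11.3 CPM in KO libraries of ZT18, against 14.9, 21.9, 16.7 and 17.8 CPM in WT libraries of ZT18. The groups did not overlap, and the log2 fold change was -0.68 (SE 0.209, 95% interval -1.1 to -0.25, adjusted p = 0.0703). At ZT18 the low-rRNA split coincides with genotype and cannot be told apart from it. Some markers of other cells were also higher there. Of 12 oligodendrocyte markers, 11 were above the filter and 4 passed as higher in KO. The 11 summed to 678 to 891 CPM in KO, against 468 to 547 CPM in WT. The 7 red cell markers, all detected, summed to 4650 to 7810 CPM in KO and 3090 to 3520 CPM in WT. The 10 endothelial markers summed to 81.8 to 118 CPM in KO and 47.9 to 87.2 CPM in WT, with overlap. All 20 microglia markers were above 0, with a median log2 fold change of 0.37, as were all 8 mural (vessel wall) markers, with 1.1. The median was 0.56 over the 10 neuron markers and 1.41 over the 6 choroid plexus markers. It was -0.02 over the 10 astrocyte markers and -0.07 over the 20 OPC markers. No marker of these lists, and no red cell or endothelial marker, passed. Their part in the values of ZT18 was not tested.

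**Figure D2:**
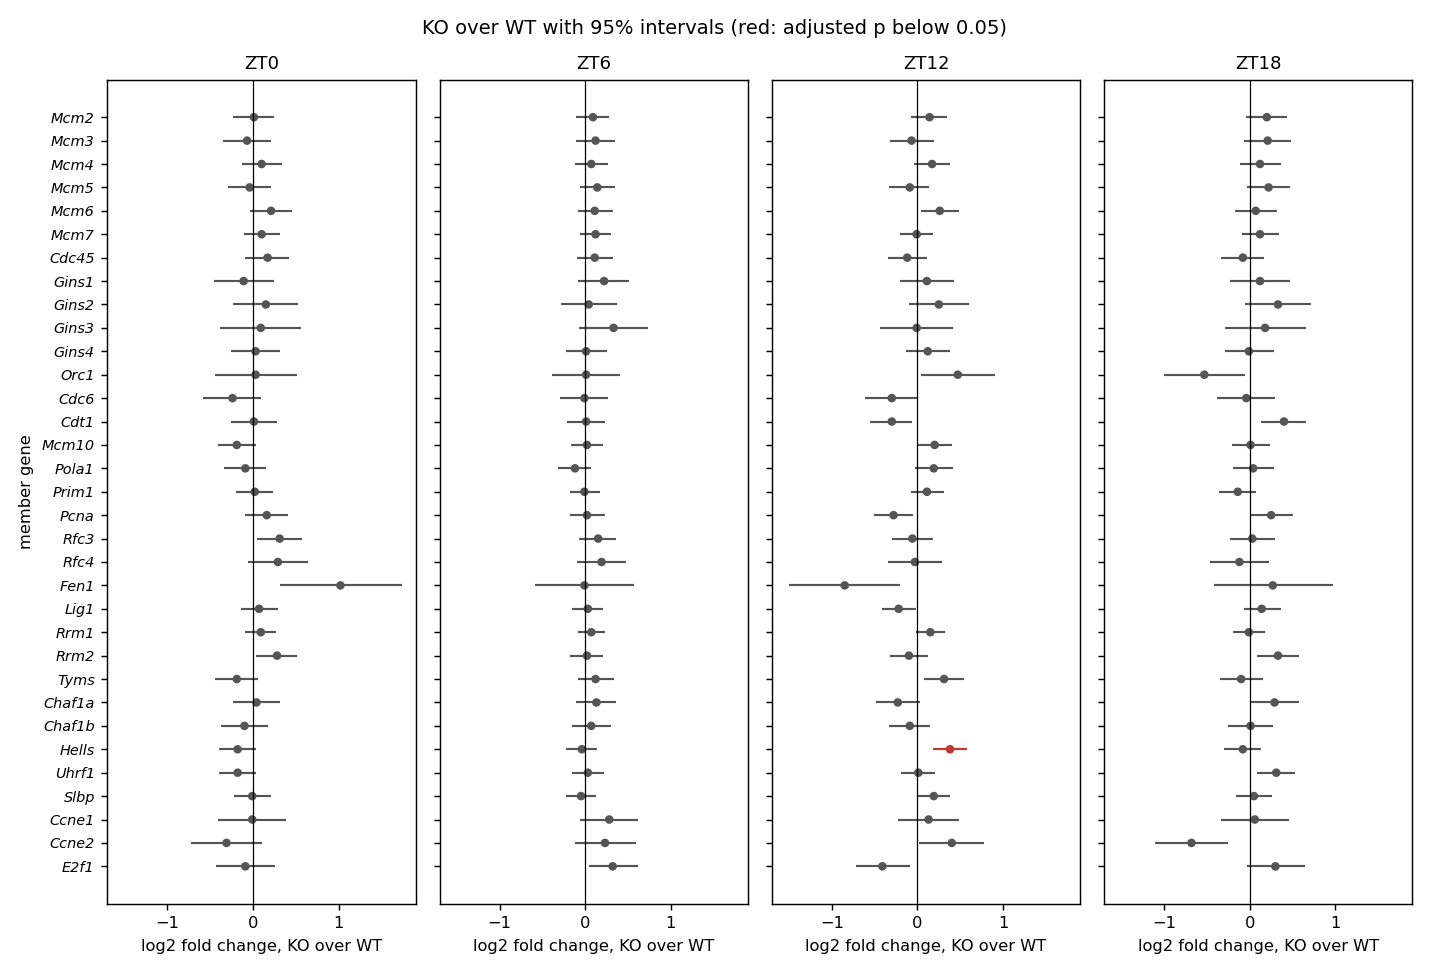
Log2 fold change of KO over WT for each of the 33 genes at each zeitgeber time, with 95% intervals from edgeR's quasi-likelihood fit; red marks an adjusted p below 0.05. Only Hells at ZT12 is red, at 0.38, and Fen1 has the widest intervals, to 1.74 at ZT0.

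Pcna and Cdt1 varied over the day in both genotypes and were high at ZT6, in the middle of the light phase. In KO, 7 of the 33 genes passed the test of any difference among the 4 times (Pcna, Cdt1, E2f1, Uhrf1, Mcm3, Ccne2 and Hells), where 21.9% of all genes passed, so that the share of members was near the background. In WT, Pcna and Cdt1 passed, 2 of 33, where 4.91% of all genes passed.

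Between pairs of times, by the same test, members passed as follows. For ZT6 over ZT0, Pcna and Cdt1 were higher in each genotype, where 10.2% of all genes passed in KO (6.55% higher) and 2.58% in WT (2.2% higher). For ZT12 over ZT6, 4 members passed in KO, with Hells higher and Pcna, Cdt1 and E2f1 lower, where 7.02% of all genes passed (2.19% higher and 4.82% lower), and none did in WT, where 4.64% passed. For ZT18 over ZT0, Cdt1 and Uhrf1 were higher in KO, where 1.59% passed (1.12% higher), and no member or other gene passed in WT. For ZT18 over ZT12, E2f1, Cdt1 and Lig1 were higher and Ccne2 lower in KO, where 15.6% passed (9.09% higher and 6.52% lower), and no member passed in WT, where 0.272% of all genes did. All KO libraries of ZT18 are low-rRNA. With the low-rRNA set as a term, none of the 4 calls for ZT18 over ZT12 held, where 0.338% of all genes passed, and neither call for ZT18 over ZT0 held, where 0.00877% passed. Without the single-sex libraries no gene of all tested passed ZT18 over ZT0 in KO, and Cdt1 had 0.42 (adjusted p = 0.129) and Uhrf1 0.32 (adjusted p = 0.18).

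Pcna (chromosome 2, 132249162 to 132253314, minus strand, GRCm38) encodes the sliding clamp. In KO libraries it lay at 159, 209, 231 and 185 CPM at ZT0, 207 to 315 CPM with a median of 262 at ZT6, 175, 195, 181 and 184 CPM at ZT12 and 192, 224, 200 and 239 CPM at ZT18. WT libraries had 168, 180, 191 and 165 CPM at ZT0, 262, 275, 268, 263 and 244 CPM at ZT6, 182 to 276 CPM with a median of 223 at ZT12 and 205, 195, 174 and 144 CPM at ZT18. In WT all libraries of ZT6 were above all libraries of ZT0 and of ZT18, and in KO those of ZT6 were above those of ZT12 and overlapped ZT0 and ZT18. The adjusted p over the 4 times was 0.00161 in KO and 0.00148 in WT. For ZT6 over ZT0 the log2 fold change was 0.44 (SE 0.111, adjusted p = 0.00915) in KO and 0.58 (SE 0.118, adjusted p = 0.00205) in WT. It was -0.54 for ZT12 over ZT6 in KO (SE 0.111, adjusted p = 0.00255) and -0.55 for ZT18 over ZT6 in WT (SE 0.118, adjusted p = 0.00254). These comparisons share the libraries of ZT6. KO and WT did not differ past the threshold in Pcna at any time, and at ZT6 the 95% interval of KO over WT was -0.18 to 0.23. The test of whether the daily course differed by genotype gave an adjusted p of 0.103.

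Cdt1 (chromosome 8, 122568015 to 122573554, plus strand) encodes the loading factor that is destroyed once S phase starts. In KO libraries it lay at 25.2, 33.6, 36.7 and 35.4 CPM at ZT0, 40.8 to 51.9 CPM with a median of 43 at ZT6, 30.7, 36, 34.8 and 33.3 CPM at ZT12 and 44.2, 44.2, 42.2 and 54.4 CPM at ZT18. The WT values were 32.4, 30.1, 30 and 37.3 CPM at ZT0, 39.9, 51.7, 42.5, 46.6 and 44.2 CPM at ZT6, 31.6 to 53 CPM with a median of 40.2 at ZT12 and 33.4, 41, 32.9 and 33.3 CPM at ZT18. In each genotype every library of ZT6 was above every library of ZT0, and the KO libraries of ZT18 overlapped those of ZT6. The adjusted p over the 4 times was 0.00288 in KO and 0.0442 in WT, where 19 of the 38 fits that each left out 1 library missed the threshold, with adjusted p up to 0.127. For ZT6 over ZT0 the log2 fold change was 0.47 in KO (SE 0.119, adjusted p = 0.0105) and 0.47 in WT (SE 0.127, adjusted p = 0.0313). In KO, Cdt1 was lower at ZT12 than at ZT6 (-0.42, SE 0.119, adjusted p = 0.0234) and higher at ZT18 than at ZT12 (0.46, SE 0.132, adjusted p = 0.0167). The call for ZT12 over ZT6 was lost without KO ZT12 replicate 1, 3 or 4 (adjusted p up to 0.121), and that for ZT18 over ZT12 without KO ZT12 replicate 1 or KO ZT18 replicate 4 (up to 0.0906). For ZT18 over ZT0 in KO, Cdt1 had 0.5 (SE 0.132, adjusted p = 0.0437) and missed the threshold in 8 of 38 fits without 1 library, with adjusted p up to 0.244. KO over WT at ZT6 was 0.01 with a 95% interval of -0.21 to 0.23.

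Without the 8 low-rRNA libraries, Pcna and Cdt1 were the members that passed over time in each genotype, at adjusted p = 0.00219 and 0.00758 in KO over its 3 remaining times and 0.00212 and 0.0255 in WT. The ZT6 over ZT0 values then were 0.45 and 0.45 in KO (adjusted p = 0.0128 for Pcna and 0.0109 for Cdt1) and 0.58 and 0.47 in WT (adjusted p = 0.00246 for Pcna and 0.0127 for Cdt1). Without the 13 single-sex libraries, Pcna passed ZT6 over ZT0 in KO at 0.48 (adjusted p = 0.00672) and in WT at 0.54 (adjusted p = 0.00362), while Cdt1 missed at 0.37 (adjusted p = 0.0626) in KO and 0.42 (adjusted p = 0.0726) in WT. Leaving out KO ZT0 replicate 1, a library with no Y-linked counts, gave 0.36 for both genes in KO (adjusted p = 0.0886 for Pcna and 0.101 for Cdt1). In WT, Cdt1 missed the threshold for ZT6 over ZT0 without replicate 1, 2 or 3 of ZT0 or replicate 2 or 4 of ZT6, with adjusted p of 0.0756, 0.137, 0.0967, 0.121 and 0.0664, and its value stayed between 0.42 and 0.54. Markers of other cells differed between the same times. For ZT6 over ZT0, 14 of the 20 microglia markers were higher in KO, with sums of 9350 to 22800 CPM at ZT6 and 5100 to 10200 CPM at ZT0. In WT none of the 20 passed, and the sums overlapped, at 10600 to 17600 CPM at ZT6 and 7150 to 17200 CPM at ZT0. Of 10 neuron markers, all detected, 7 were lower at ZT6 than at ZT0 in KO and 3 in WT, with a median log2 fold change of -0.87 in each genotype. Their sums were 964 to 1560 CPM at ZT6 and 1540 to 2100 CPM at ZT0 in KO, and 1110 to 1410 CPM at ZT6 and 1200 to 1890 CPM at ZT0 in WT. The part of either marker list in the values of Pcna and Cdt1 was not tested.

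**Figure D3:**
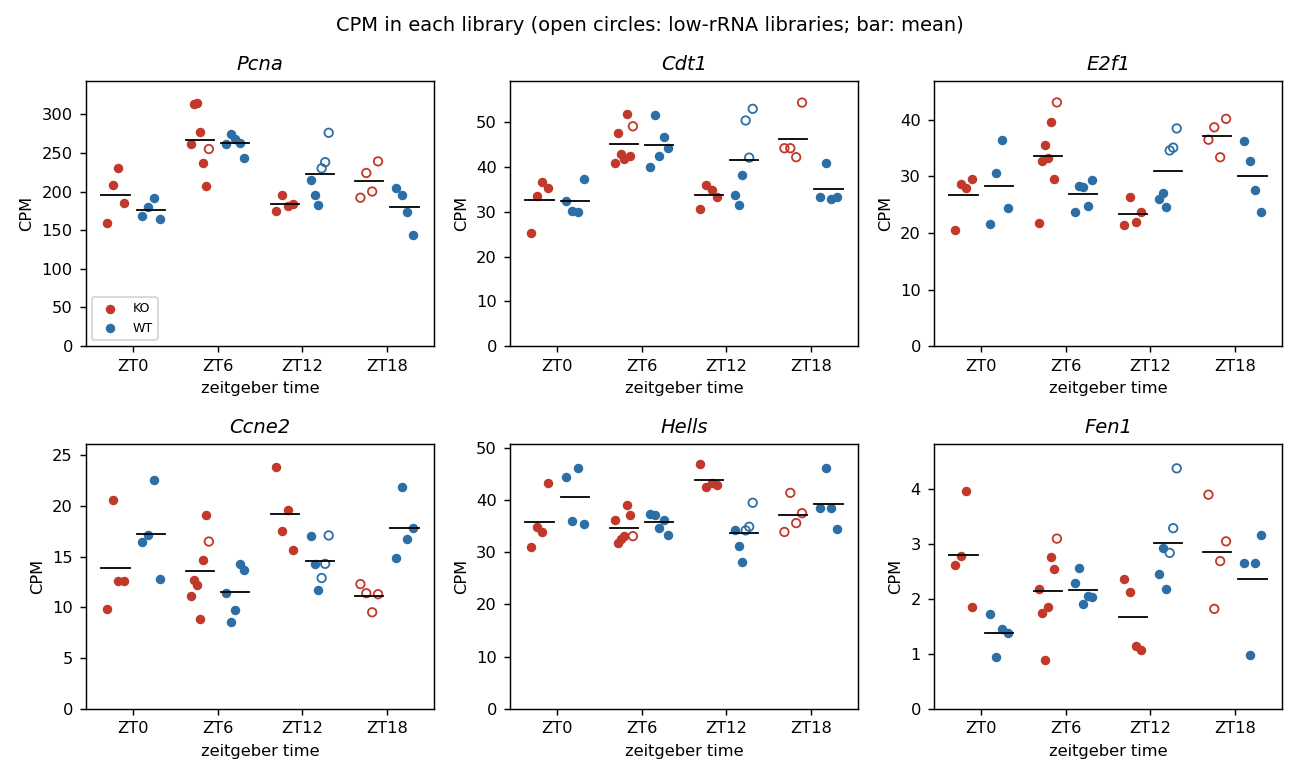
CPM of 6 genes in each library by zeitgeber time, with KO in red left of WT in blue, bars at group means and open circles for low-rRNA libraries. Pcna and Cdt1 are high at ZT6 in both genotypes, whereas E2f1 lies at 33.4 to 40.2 CPM in KO ZT18 and at 21.4 to 26.3 CPM in KO ZT12.

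E2f1 (chromosome 2, 154559407 to 154569892, minus strand), a transcription factor that raises S-phase genes, passed the test of time in KO. In KO libraries it lay at 20.5, 28.6, 28 and 29.6 CPM at ZT0, 21.8 to 43.1 CPM with a median of 33.2 at ZT6, 21.4, 26.3, 22 and 23.8 CPM at ZT12 and 36.5, 38.7, 33.4 and 40.2 CPM at ZT18. Libraries of WT had 21.6, 30.7, 36.4 and 24.5 CPM at ZT0, 23.8, 28.3, 28.2, 24.8 and 29.3 CPM at ZT6, 24.6 to 38.5 CPM with a median of 30.8 at ZT12 and 36.3, 32.7, 27.6 and 23.8 CPM at ZT18. The KO libraries of ZT18 were all above those of ZT12, and the WT groups overlapped. The adjusted p over time was 0.00901 in KO and 0.814 in WT, and that of genotype by time, the test of the difference in course, was 0.0486. In KO, ZT18 over ZT12 was 0.67 (SE 0.168, adjusted p = 0.00605), a comparison of low-rRNA with other libraries, and ZT12 over ZT6 was -0.53 (SE 0.152, adjusted p = 0.0277). The call for ZT12 over ZT6 was lost in 5 of 38 fits without 1 library, those without KO ZT6 replicate 5 or 7 or KO ZT12 replicate 1, 3 or 4, with adjusted p up to 0.125, and without the 8 low-rRNA libraries, at -0.46 (adjusted p = 0.0742).

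Ccne2 (chromosome 4, 11191351 to 11204779, plus strand) ran the other way between the same times. In KO libraries it lay at 9.83, 20.6, 12.6 and 12.6 CPM at ZT0, 8.86 to 19.1 CPM with a median of 12.7 at ZT6, 23.9, 17.5, 19.6 and 15.7 CPM at ZT12 and 12.3, 11.4, 9.52 and 11.3 CPM at ZT18. Across WT libraries it lay at 16.5, 17.1, 22.6 and 12.8 CPM at ZT0, 11.4, 8.57, 9.77, 14.3 and 13.7 CPM at ZT6, 11.7 to 17.1 CPM with a median of 14.3 at ZT12 and 14.9, 21.9, 16.7 and 17.8 CPM at ZT18. KO was highest at ZT12 and lowest at ZT18, and the 2 groups did not overlap. In KO, ZT18 over ZT12 was -0.78 (SE 0.209, adjusted p = 0.00956), and -0.67 without KO ZT12 replicate 1 (adjusted p = 0.055). Its call over time in KO was lost without KO ZT12 replicate 1 or 3 or KO ZT18 replicate 2, 3 or 4, with adjusted p up to 0.136. The adjusted p was 0.0297 over time in KO, 0.137 over time in WT and 0.0253 for genotype by time. Ints8, which overlaps Ccne2 on the other strand, passed none of the tests.

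The course over the day differed by genotype in 4 of the 33 genes, where 9.19% of all genes passed: Ccne2 at adjusted p = 0.0253, Hells at 0.0271, Fen1 at 0.0444 and E2f1 at 0.0486. Hells (chromosome 19, 38930915 to 38971051, plus strand) lay at 31, 34.8, 33.9 and 43.3 CPM at ZT0, 31.8 to 39 CPM with a median of 33.2 at ZT6 and 33.9, 41.4, 35.6 and 37.5 CPM at ZT18 in KO libraries, all but 1 of them below its 4 values of ZT12. In WT libraries it lay at 44.5, 36, 46.2 and 35.4 CPM at ZT0, 37.4, 37.2, 34.7, 36.1 and 33.3 CPM at ZT6 and 38.4, 46.1, 38.5 and 34.4 CPM at ZT18. KO was highest at ZT12, the time at which WT was lowest by its mean. Fen1 (chromosome 19, 10199132 to 10204169, minus strand) lay at 2.62, 2.79, 3.97 and 1.86 CPM in KO and 1.73, 0.944, 1.46 and 1.38 CPM in WT at ZT0, with all KO values above all WT values. It averaged 2.81 ± 0.873 CPM in KO and 1.38 ± 0.327 CPM in WT at ZT0 (SD, n = 4 each). At ZT12 it averaged 1.67 ± 0.663 CPM in KO (SD, n = 4) and 3.01 ± 0.771 CPM in WT (SD, n = 6). Tmem258, which overlaps it, passed genotype by time too (adjusted p = 0.00935) and had -0.57 for KO over WT at ZT12 (adjusted p = 0.0286), and reads of the pair cannot be told apart. Leaving out 1 library at a time, E2f1 missed the threshold in 28 of 38 fits, Fen1 in 22, and Hells and Ccne2 in 3 each. Those were KO ZT12 replicates 1 and 3 and WT ZT12 replicate 3 for Hells (adjusted p up to 0.0875), and KO ZT12 replicate 1, KO ZT18 replicate 3 and WT ZT18 replicate 2 for Ccne2 (up to 0.0655). The adjusted p of E2f1 reached 0.128 and that of Fen1 0.103. For Hells, ZT12 over ZT6 in KO was 0.34 (SE 0.0946, adjusted p = 0.0224), lost without KO ZT12 replicate 1 (adjusted p = 0.101) and without the low-rRNA libraries (0.33, adjusted p = 0.0584). Its call over time in KO (adjusted p = 0.0389) was lost in 10 of 38 fits. No gene of all tested passed genotype by time without the low-rRNA libraries, a fit over 3 times, and the 4 members then had adjusted p of 0.48 for Ccne2, 0.135 for Hells, 0.273 for Fen1 and 0.559 for E2f1. With the low-rRNA set as a term in the model, 0.189% of all genes and none of the members passed. Without the 13 single-sex libraries, E2f1 (adjusted p = 0.0128), Cdt1 (0.0209) and Pcna (0.0231) passed and the others did not, in a fit whose WT ZT12 group is 2 low-rRNA libraries.

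Mcm3 and Uhrf1 completed the members that passed over time in KO. Mcm3 (chromosome 1, 20802968 to 20820312, minus strand), a subunit of the ring, lay at 66.7, 85.5, 88.3 and 84.1 CPM at ZT0, 82.1 to 125 CPM with a median of 103 at ZT6, 94, 91.3, 84.6 and 77.8 CPM at ZT12 and 105, 117, 102 and 119 CPM at ZT18 in KO libraries. In WT libraries it lay at 67.2, 93.6, 98.6 and 81.7 CPM, then 88.7, 96.4, 95.1, 97.4 and 104 CPM, then 76.4 to 121 CPM with a median of 86.4, and then 108, 118, 80.8 and 76.9 CPM. The KO libraries of ZT18 were all above those of ZT0 and ZT12, and the WT groups overlapped (adjusted p = 0.027 in KO and 0.819 in WT). All KO libraries of ZT18 are low-rRNA, and no KO library of ZT0 or ZT12 is. Uhrf1 (chromosome 17, 56303321 to 56323486, plus strand), which carries DNA methylation through replication, lay at 65, 85.4, 72.9 and 75.8 CPM at ZT0, 77 to 104 CPM with a median of 90.1 at ZT6, 90.3, 85, 89.8 and 92.7 CPM at ZT12 and 112, 105, 87.2 and 97.3 CPM at ZT18 in KO libraries. In WT libraries it lay at 94.9, 79.5, 88.1 and 77.1 CPM, then 86.5, 96, 82.1, 85.3 and 93.7 CPM, then 73.8 to 101 CPM with a median of 91.6, and then 82.1, 90.9, 77.5 and 74.3 CPM. In KO the libraries of ZT18 were above those of ZT0 without overlap, by 0.43 on the log2 scale (SE 0.109, adjusted p = 0.0385), and WT overlapped throughout (adjusted p over time = 0.0268 in KO and 0.824 in WT). The call over time in KO was lost without KO ZT0 replicate 1 or KO ZT18 replicate 2 or 4 for Mcm3 (adjusted p up to 0.0817). For Uhrf1 it was lost without KO ZT0 replicate 1 or 3 or KO ZT18 replicate 1 or 2 (up to 0.113), and the call for ZT18 over ZT0 was lost in 6 of 38 fits (up to 0.226). Neither gene passed over time in KO with the low-rRNA set as a term, or without the low-rRNA libraries and so without KO ZT18. Genotype by time did not pass for Mcm3 (adjusted p = 0.595) or Uhrf1 (0.141).

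**Figure D4:**
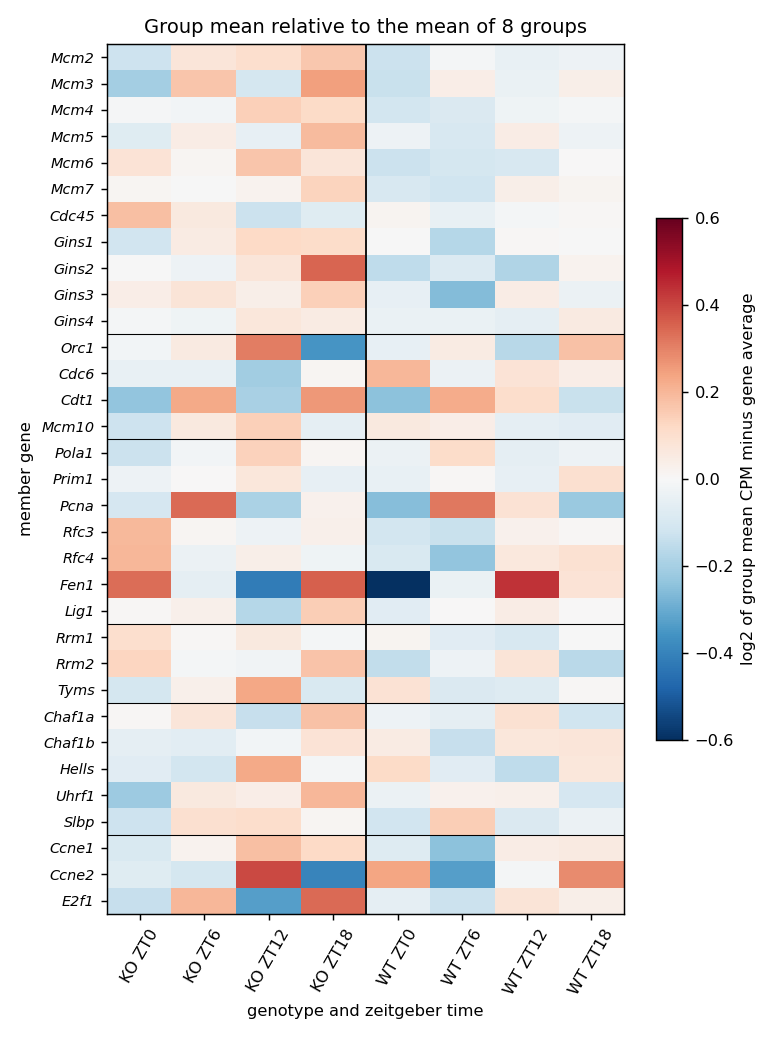
Log2 of each group's mean CPM minus the gene's average over the 8 groups, for the 33 genes in order of role (rows) and the KO and WT groups by zeitgeber time (columns), on a colour scale from -0.6 to 0.6. Pcna and Cdt1 are red at ZT6 in both genotypes, and E2f1 and Ccne2 have opposite colours at ZT12 and ZT18 in KO.

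For the 25 members that passed none of the 12 tests of genotype, time and their interaction, the highest group mean was 1.09 (Gins4) to 1.58 (Orc1) times the lowest. Prim1, the primase subunit, and Rrm1 were among the steadiest, with ratios of 1.1 and 1.15. No member passed ZT12 over ZT0, the ends of the light phase, in KO or in WT, where 3.27% and 0.00877% of all genes passed. For ZT18 over ZT6 none passed in KO, where 5.03% of all genes passed, and in WT Pcna alone did, where 4.6% did. Lig1, the ligase that joins Okazaki fragments, passed ZT18 over ZT12 in KO at 0.32 (SE 0.104, adjusted p = 0.0339), in a comparison of low-rRNA with other libraries, and missed the threshold in 6 of 38 fits without 1 library (adjusted p up to 0.132).

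Several of these values moved with the low-rRNA set. WT ZT12 held 3 libraries of each kind, and 14 of the 33 genes were higher in all 3 low-rRNA libraries than in any of the other 3, with none lower in all 3. Over all genes tested, 11.6% were higher without overlap and 8.64% lower, and the median log2 difference was 0.19 over the members and 0.01 over all genes. E2f1 lay at 34.6 to 38.5 CPM in the 3 low-rRNA libraries and at 24.6 to 27 CPM in the others. Cdt1 lay at 42.1 to 53 CPM and at 31.6 to 38.3 CPM, Uhrf1 at 100 to 101 CPM and at 73.8 to 83 CPM, and Mcm3 at 93.7 to 121 CPM and at 76.4 to 79.1 CPM. Ccne2 overlapped, at 12.9 to 17.1 CPM and 11.7 to 17 CPM. The 3 other libraries all lacked Y-linked counts, as did 1 of the low-rRNA ones, so sex moved with the split, and its part in these differences was not tested. Without the low-rRNA libraries E2f1, Mcm3, Uhrf1, Ccne2 and Hells missed the threshold over time in KO, at adjusted p of 0.0915, 0.125, 0.111, 0.14 and 0.0608.

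In some libraries most members lay on the same side of their group's median. KO ZT0 replicate 1 held 1 of the 33 genes above its group's median, and KO ZT18 replicate 3 held 3. WT ZT12 replicate 6 held 31, WT ZT18 replicate 2 held 30 and WT ZT0 replicate 3 held 28. The genes of a library share its cells, scaling and depth, so they are not independent of each other. The same count over all genes was not made, so these shifts cannot be called particular to the members.

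**Figure D5:**
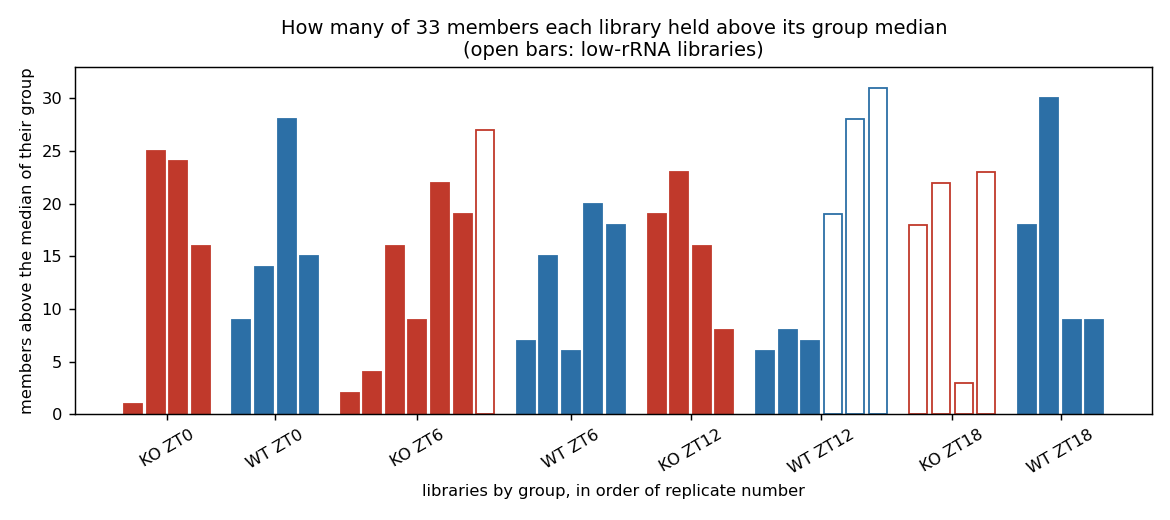
Number of the 33 genes that lay above the median of their own group in each library, with KO (red) left of WT (blue) at each zeitgeber time and open bars for low-rRNA libraries. Counts run from 1 in KO ZT0 replicate 1 to 31 in WT ZT12 replicate 6.

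Other genes of the pathway were taken as lists of 60 further replication genes, 24 E2F, RB and cyclin-kinase genes and 24 mitosis genes, all of which passed the filter. In KO over WT over all times none of the 60, 24 or 24 passed, as none of the members did. At ZT12, where 5% of all genes passed, 3 of the 60 passed: Mcmbp, which binds MCM proteins, was higher in KO (0.24), and Rnaseh2c (-0.82) and Pold2, a subunit of polymerase delta (-0.39), were lower. Of the 24 E2F, RB and cyclin-kinase genes, Rb1, the retinoblastoma gene, was higher at 0.27 and Cdkn1a, the inhibitor p21, lower at -0.85, and of the mitosis genes Bub1 was higher at 0.43. For genotype by time, 5, 3 and 0 of the 60, 24 and 24 genes passed, where 9.19% of all genes did. For time of day 8, 8 and 4 passed in KO, where 21.9% of all genes did, and 2, 1 and 5 in WT, where 4.91% did. At ZT18, where 2.14% of all genes passed, the origin gene Orc3 was lower in KO (-0.41) and the kinase inhibitor Cdkn2c higher (0.58). All KO libraries of ZT18 are low-rRNA, and no WT library of ZT18 is. With the low-rRNA set as a term, 0.342% of all genes passed at ZT12, 0.00877% at ZT18 and 0.189% for genotype by time. Without the low-rRNA libraries, 1 gene of all tested passed at ZT12 and none passed genotype by time. The genes of these lists were not followed in either fit.

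For ZT18 over ZT6 in WT, where 4.6% of all genes passed, 5 of the 24 mitosis genes passed, all lower (Kif23, Cenpe, Ube2c, Ccnb1 and Anln, at -0.59 to -0.42), and all 24 values were below 0 with a median of -0.28, against a median of 0.09 over the 33 members and 0 over all genes. In KO, where 5.03% of all genes passed, Kif23 passed at -0.36, and 23 of 24 were below 0 with a median of -0.16, against 0.07 over the members and -0.02 over all genes. All KO libraries of ZT18 and KO ZT6 replicate 7 are low-rRNA. With the low-rRNA set as a term, 1.36% of all genes passed and the members' median was -0.17. The other lists and their genes were not followed in that fit. Cdkn1a averaged 101 ± 23.1 CPM at ZT6 and 38.7 ± 11.9 CPM at ZT0 in KO (SD, n = 7 and 4), and 108 ± 10.7 CPM at ZT6 and 50.7 ± 20.8 CPM at ZT0 in WT (SD, n = 5 and 4). Its log2 fold change for ZT6 over ZT0 was 1.38 in KO (SE 0.228, adjusted p = 0.000222) and 1.1 in WT (SE 0.236, adjusted p = 0.00373). Of the 60 further replication genes, Msh6, a mismatch repair gene, was higher at ZT18 than at ZT6 (0.38 in KO and 0.57 in WT), and Atad2 was lower (-0.49 in each genotype). Ccnd2, a cyclin D, was higher at ZT18 than at ZT6 in both, by 0.72 in KO and 0.75 in WT.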

How the data were processed

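Forebrain OPCs of postnatal mice were profiled by poly-A RNA-seq in 38 libraries, 19 KO and 19 WT. The authors deposited raw read counts per gene. Per the submitters' processing notes, fastp, HISAT2 2.0.5 and featureCounts 1.5.0-p3 were used with GRCm38. Neither the annotation release nor the strand setting is given in the sources used here. Totals were 19.4 to 39 M counts a library.

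Counts were tested with edgeR 4.0.16 (quasi-likelihood, filterByExpr, TMM) in R 4.3.3, in 1 model of 8 genotype-by-time groups. Benjamini-Hochberg adjustment ran over 22798 of 54532 genes at a threshold of 0.05, and intervals are 95%. The steps were tested on simulated data. CPM use TMM library sizes, and RPKM the gene lengths of the table. The members and the gene lists were chosen with earlier results of these data known. Named genes are members past the threshold in any of 12 planned tests or with the smallest p in one of them. The 8 other pairwise comparisons of times, and the fits without single-sex libraries, were added after seeing the data. Low-rRNA libraries were split at the widest gap in rRNA share. Alternatives were other scaling, no filter, DESeq2 1.42.0, limma-voom (limma 3.58.1), a replicate block, 1 time alone, the low-rRNA set left out or as a term, and leaving out each library. Libraries are separate pools of mice as far as the labels say, so p-values measure the spread between these pools.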

Additional observations from a re-analysis of the deposited data

Results flagged for a closer look

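In 14 of 264 sets of values, 1 library lay far from the rest of its group, and chance flags about 1 in 20 such groups. In KO ZT18, replicate 3 was low in Mcm4 (78.5 CPM, next 95.2), Mcm5 (100 CPM, next 117) and Rrm2 (72 CPM, next 87), replicate 2 was low in Orc1 (3.54 CPM, next 4.84), and replicate 4 was high in Cdt1 (54.4 CPM, next 44.2). In KO ZT12, replicate 3 was low in Gins4 (16.6 CPM, next 21.5) and Rrm2 (64.7 CPM, next 76.2), and replicate 1 was high in Hells (47 CPM, next 43.2). KO ZT0 replicate 1 was low in Tyms (21 CPM, next 24). WT ZT18 replicate 2 was high in Cdt1 (41 CPM, next 33.4) and Lig1 (102 CPM, next 81.4). WT ZT6 replicate 5 was high in Mcm2 (111 CPM, next 98.5), Gins3 (6.4 CPM, next 4.72) and Rrm1 (171 CPM, next 152).

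By edgeR's interaction test, 4 of the 33 genes passed for a course that differed between KO and WT, where 9.19% of all genes did. They were Ccne2 (adjusted p = 0.0253), Hells (0.0271), Fen1 (0.0444) and E2f1 (0.0486). None of these calls held without the low-rRNA libraries or with the low-rRNA set as a term. Leaving out 1 library, E2f1 missed the threshold in 28 of 38 fits and Fen1 in 22.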

How the results depend on the processing

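No called value of a single member changed sign under any alternative run. Of the 33 genes, KO over WT at ZT12 called 1 in the fit to all libraries, 2 with total count scaling, 2 with the replicate block, 0 without the low-rRNA libraries, 0 with the low-rRNA set as a term, 0 with the libraries of ZT12 alone and 3 without the single-sex libraries. At ZT18 it called 0, against 1 with total count scaling, 1 with DESeq2, 1 with the block and 3 with the libraries of ZT18 alone. Genotype by time called 4, against 2 with DESeq2's size factors in edgeR, 2 with no filter, 2 with limma-voom, 2 with the block, 0 without the low-rRNA libraries, 0 with them as a term, 3 with total count scaling, 3 without the single-sex libraries and 6 with DESeq2, which kept all 4. Time of day in KO called 7, against 2 without the low-rRNA libraries, 3 with them as a term, 6 with no filter, 6 without the single-sex libraries, 8 with total count scaling, 8 with DESeq2 and 9 with the block. Time of day in WT called 2, against 1 each with total count scaling, limma-voom and the block. ZT12 over ZT0 in WT called 0, and 1 without the single-sex libraries. ZT12 over ZT6 in KO called 4, and 4 with the block, which kept Pcna and Hells, lost Cdt1 and E2f1 and added Mcm6 and Ccne2. ZT18 over ZT6 called 0 in KO, against 1 with DESeq2's size factors, 1 with DESeq2 and 2 with the block, and called 1 in WT, against 2 with total count scaling, DESeq2 or the block and 0 without the single-sex libraries. Leaving out 1 library gave 0 to 1 at ZT12, 0 to 5 for genotype by time, 4 to 7 for time in KO, 1 to 2 for time in WT, 0 to 1 for ZT12 over ZT0 in KO, and for ZT18 over ZT6 0 to 1 in KO and 1 to 2 in WT. The cause of these moves was not tested. Libraries of the same number in different groups had a median correlation of 0.0446 over 116 pairs, 25 of them over 0.1. Those of different number had -0.0018 over 511 pairs, 90 of them over 0.1. These values do not settle whether the number marks a pairing. Without the low-rRNA libraries no KO ZT18 library is left, and depth limits Fen1 most.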
